A study of Homo sapiens with 4 samples.

Results

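The 35 genes described here make, move and export cholesterol, control these steps or make fatty acids. They were chosen by name, by a rule that uses no measured value, although the list was drawn up with earlier results of these data known, and 34 of the 35 were found among the 57820 gene rows of the count files. ACACA, the carboxylase that commits acetyl-CoA to fatty acid synthesis, could not be matched to an identifier in the files and was not analysed here. The 34 others were all among the 16468 genes with enough fragments to be tested. The cells were SY5Y (SH-SY5Y), a human neuroblastoma line labelled MYCN wild type, and all 4 libraries were made 12 h after treatment. The 2 control libraries were treated with the solvent DMSO and the 2 others with the compound labelled SGSS05-NS. The study writes SGSS05-NS3 for the compound given to the sequenced cells, a covalent inhibitor of SETD8, and also names SGSS05-NS as a SETD8 inhibitor of that series. Whether the labels and the study mean the same compound could not be settled. SETD8 is the enzyme that places a single methyl group on lysine of histone H4 and of other proteins. The labels give a dose of 3 μM. The methods of the study name a lower dose for this line, while other passages name the labelled dose, so the dose is given as labelled. The question put to these genes was whether RNA for synthesis, uptake and export of sterols differed between inhibitor and solvent, in 1 cell line at 1 time.

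Cells build cholesterol from acetyl-CoA through the mevalonate pathway to squalene, close squalene into the ring-shaped lanosterol, and trim lanosterol to cholesterol. When sterols run low in the endoplasmic reticulum, the protein SCAP escorts SREBP transcription factors to the Golgi, where they are cleaved and released to switch on synthesis and uptake genes. INSIG proteins hold SCAP back when sterols are plentiful. Oxysterols that build up when sterols are plentiful activate LXR nuclear receptors, which raise export pumps such as ABCA1 and ABCG1 and the ubiquitin ligase MYLIP, which targets lipoprotein receptors for degradation. Fatty acid synthesis starts from the same acetyl-CoA, which ACLY cuts from citrate, and is under a related SREBP.

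Each library held between 21463105 and 25350204 fragments assigned to genes on the expected strand. The share of fragments that fell in no gene was 12.3% and 12.4% with DMSO and 15.3% and 16.1% with SGSS05-NS, and its part in the results was not tested. Of 10 markers of neuroblastoma, 9 were tested and 6 of these were lower with SGSS05-NS at an edgeR adjusted p under 0.001. Over all genes tested, 8.14% were lower at that threshold. The summed level of the 10 markers was 3548 and 3823 CPM (fragments scaled to a common library size) in DMSO. In SGSS05-NS it was 2242 and 2015 CPM. TH, the enzyme of catecholamine synthesis and a defining marker, was at 0 to 2 fragments a library. The 9 matched markers of other cell types summed to between 4.67 and 6.53 CPM, and PTPRC, CD3E, PRRX1, DCN and ALB were at 0 or 1 fragment in each library and CD68 at 0 to 4. The 3 that were tested were COL1A1 (21 to 28 fragments), COL3A1 (31 to 74) and EPCAM, an epithelial adhesion protein, with 37 and 37 fragments in DMSO and 53 and 84 in SGSS05-NS (log2 fold change 0.97, edgeR adjusted p = 0.012). None of the 3 was called at 0.001, and their part in the results was not tested. In bulk RNA, fewer cells of a kind and less RNA per cell cannot be told apart. Per the methods, the 2 libraries of each condition are independent biological replicates.

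Most of the sterol and fatty acid genes did not pass the test. With edgeR's quasi-likelihood test and Benjamini-Hochberg adjustment over all genes at an adjusted p under 0.001, 1 of the 34 genes was higher with SGSS05-NS (MYLIP) and 3 were lower (LSS, ACLY and ELOVL6), and 30 were not called. Over all genes tested, 6.37% were higher and 8.14% lower at that threshold. At an adjusted p under 0.05, 4 of the 34 were higher (HSD17B7, NPC1, ABCA1 and MYLIP) and 8 were lower (LSS, ACLY, ELOVL6, ACAT2, MVK, FDPS, SQLE and SCAP), against 22.6% higher and 23.7% lower over all genes. At both thresholds the share of members called lower was near that of all genes, and the share called higher was smaller. The log2 fold change was negative for 27 of the 34 and positive for 7, with a median of -0.17 beside a median of 0.012 over all genes. In 6 members both SGSS05-NS libraries lay above both DMSO libraries and in 17 both lay below; over all genes, 74.7% did not overlap in 1 direction or the other.

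**Figure D1:**
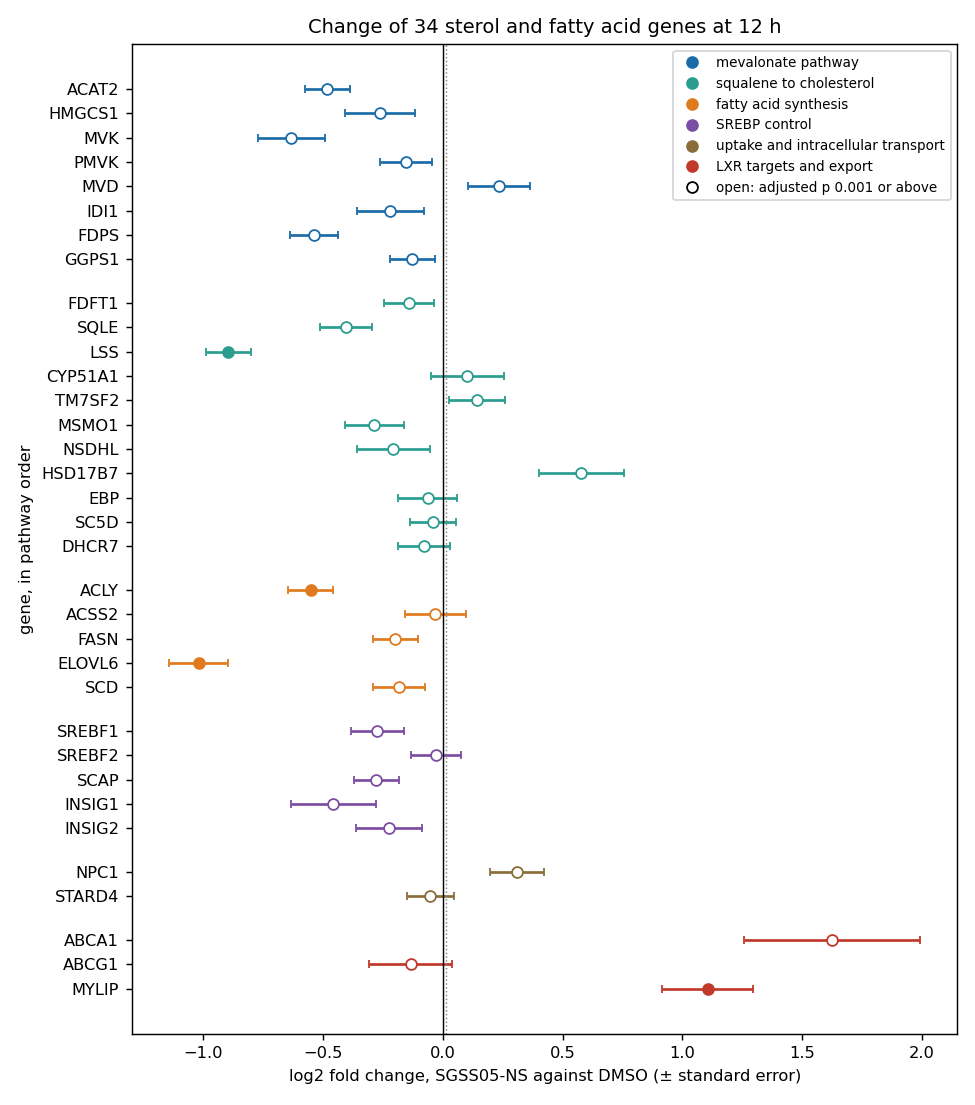
The 34 genes are listed in pathway order with their log2 fold change (SGSS05-NS against DMSO) on the x axis; bars are ± 1 standard error, filled points passed an adjusted p of 0.001 and the dotted line is the median of all genes. MYLIP is the filled point on the right, LSS, ACLY and ELOVL6 are the filled points on the left, and ABCA1 lies farthest right with the longest bar.

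SREBP transcription factors act at promoters of their target genes, and no binding was measured here. As a description, 4 motifs were looked for on both strands in the 250 bases before the start of each gene. The sequences were RefSeq promoters of GRCh38.p14 (a different build from the hg19 counts). Entries were found for 30 of the 35 members, and none for ACAT2, FDFT1, SQLE, FASN and ABCG1. The sterol element TCACNCCAC was in 239 of 27305 promoters (0.875%) and in 1 member, SREBF2. The CCAAT box was in 33.0% of all promoters and in 19 of the 30 members (63.3%). The E-box CACGTG was in 6.49% of all and in 4 members (SC5D, SCAP, INSIG1 and ABCA1). A shorter element, CACNCCAC, which overlaps the sterol element and was added after the first count was seen, was in 4.72% of all and in SCD, SREBF2, INSIG1 and ABCA1. ELOVL6 held no match to the 4 motifs. The windows below are of LSS, ACLY and MYLIP, which were called, and of SREBF2, INSIG1 and ABCA1, whose promoters hold a sterol element or an E-box. Each is 40 bases on the strand of its gene, with the match in capitals; ATTGG is the CCAAT box and GTGGCGTG the shorter element read on the opposite strand.
LSS (chr21:46228902-46228941, minus strand): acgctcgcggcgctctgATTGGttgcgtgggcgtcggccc
ACLY (chr17:41919023-41919062, minus strand): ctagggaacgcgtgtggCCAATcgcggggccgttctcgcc
MYLIP (chr6:16129001-16129040, plus strand): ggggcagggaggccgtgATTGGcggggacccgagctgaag
SREBF2 (chr22:41832957-41832996, plus strand): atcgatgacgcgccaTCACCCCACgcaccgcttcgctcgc
INSIG1 (chr7:155297654-155297693, plus strand): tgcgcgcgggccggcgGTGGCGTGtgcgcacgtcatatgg
ABCA1 (chr9:104928280-104928319, minus strand): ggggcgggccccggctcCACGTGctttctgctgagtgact
LSS and ACLY, which were lower, and MYLIP, which was higher, each carry the CCAAT box. The median log2 fold change was -0.08 over the 19 members with the box and -0.19 over the 10 tested members whose promoter had none. A match is a description of letters in a window and not a bound site.

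None of the 8 genes of the mevalonate pathway passed the threshold, and 7 of the 8 had a negative log2 fold change (median -0.24). ACAT2, the thiolase that joins acetyl-CoA units at the head of the pathway, had 3234 and 2942 fragments in DMSO and 1935 and 2242 in SGSS05-NS. Both inhibitor libraries were below both controls, at 87.2 and 95.3 CPM against 129 and 126 CPM, a log2 fold change of -0.48 ± 0.09 (SE, n = 2 libraries a condition, edgeR adjusted p = 0.0014). It passed without SGSS05-NS replicate 2 (-0.55, edgeR adjusted p = 0.00071). MVK, the mevalonate kinase, had 787 and 762 fragments in DMSO and 385 and 562 in SGSS05-NS. The conditions did not overlap for this gene either, and its log2 fold change of -0.63 ± 0.14 was the most negative of the pathway (edgeR adjusted p = 0.0034). It was -0.43 without SGSS05-NS replicate 1 and -0.88 without SGSS05-NS replicate 2, and it passed the threshold in the latter and without either DMSO library. FDPS, the synthase of farnesyl diphosphate, from which sterols and prenyl groups are made, had 4971 and 3989 fragments in DMSO against 2864 and 2950 in SGSS05-NS. Its levels were 198 and 171 CPM in DMSO and 129 and 125.4 CPM in SGSS05-NS, so the 2 inhibitor libraries lay close together below the controls, and the log2 fold change was -0.54 ± 0.10 (edgeR adjusted p = 0.0011). FDPS was just outside the threshold, and it was inside without DMSO replicate 2 (-0.66, edgeR adjusted p = 1.8e-05) and without SGSS05-NS replicate 1 (-0.56, edgeR adjusted p = 0.00053).

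The other 5 mevalonate genes had values between -0.26 and 0.23. HMGCS1, which makes HMG-CoA, had 114 and 158 CPM in DMSO and 102 and 125.1 CPM in SGSS05-NS, so its conditions overlapped (-0.26 ± 0.15, edgeR adjusted p = 0.157). Its value was -0.49 without DMSO replicate 1 and -0.026 without DMSO replicate 2. IDI1, the isomerase of isopentenyl diphosphate, overlapped as well (74.2 and 85.0 CPM against 57.1 and 79.6 CPM), and its value of -0.22 became -0.0060 without SGSS05-NS replicate 1 and -0.48 without SGSS05-NS replicate 2. PMVK, the next kinase after MVK, had a log2 fold change of -0.15, and GGPS1, which makes the geranylgeranyl chain attached to small GTPases, -0.13. MVD, the decarboxylase that ends the mevalonate steps, was the gene of this pathway with a positive value, 0.23 ± 0.13 (edgeR adjusted p = 0.159), with 21.1 and 17.8 CPM in DMSO and 21.4 and 24.4 CPM in SGSS05-NS.

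From squalene to cholesterol, LSS fell and none of the other 10 genes was called. LSS, lanosterol synthase, which closes the sterol rings, lies on chromosome 21 at 47608055 to 47648738 of hg19 (minus strand, identifier ENSG00000160285.10). It had 1655 and 1528 fragments in DMSO and 783 and 832 in SGSS05-NS. In CPM these were 66.0 and 65.4 against 35.3 and 35.4, so the libraries of each condition were nearly equal and the conditions far apart. The fold was 0.538, with a 95% interval of 0.467 to 0.620, and the log2 fold change was -0.89 ± 0.09 (edgeR adjusted p = 1.8e-05). It was called under each alternative of the analysis, at log2 fold changes from -0.95 to -0.86.

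SQLE, squalene epoxidase, which comes right before LSS and is a rate-limiting step, had 2621 and 2873 fragments in DMSO and 1778 and 2157 in SGSS05-NS. Both inhibitor libraries lay below both controls, but the log2 fold change of -0.40 ± 0.11 did not pass (edgeR adjusted p = 0.0099). FDFT1, squalene synthase, the step before SQLE, was at -0.14. MSMO1, the methyl sterol oxidase, had 57.2 and 61.0 CPM in DMSO and 41.8 and 55.0 CPM in SGSS05-NS, which did not overlap, at -0.29 ± 0.12 (edgeR adjusted p = 0.0748). The step next to LSS on the other side was CYP51A1, which demethylates lanosterol. It had 10.7 and 9.07 CPM in DMSO and 9.91 and 11.4 CPM in SGSS05-NS. Its value of 0.10 changed sign without DMSO replicate 2 (-0.03). Whether reads of CYP51A1 and of its processed pseudogenes were told apart was not tested.

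HSD17B7, the keto reductase that works on the sterol after its methyl groups are cut off, had a positive value. It had 389 and 340 fragments in DMSO and 389 and 642 in SGSS05-NS, or 15.5 and 14.6 CPM against 17.5 and 27.3 CPM. The SGSS05-NS libraries lay above the controls but far from each other, and the log2 fold change was 0.58 ± 0.18 (edgeR adjusted p = 0.0186). Without SGSS05-NS replicate 1 the gene was called, at 0.85 (edgeR adjusted p = 4.3e-05), and without SGSS05-NS replicate 2 its value was 0.22. Its pseudogene HSD17B7P2, a transcribed copy of similar sequence, had 39 and 42 fragments in DMSO and 126 and 199 in SGSS05-NS, and whether reads of the gene and its copy were told apart was not tested. NSDHL (the dehydrogenase that works with MSMO1), EBP (the sterol isomerase), SC5D (a desaturase), DHCR7 (a reductase of the end of the pathway) and TM7SF2 (a sterol reductase) had log2 fold changes from -0.21 to 0.14, none called. DHCR7 changed sign without SGSS05-NS replicate 1 (0.057).

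In fatty acid synthesis, 2 of 5 genes tested fell: ACLY, which cuts acetyl-CoA from citrate, and ELOVL6, which lengthens palmitate. The synthase between them, FASN, did not pass. ACLY (ENSG00000131473.12, chromosome 17, 40023170 to 40086795 of hg19, minus strand), the citrate lyase, had 8822 and 8965 fragments in DMSO and 5515 and 5954 in SGSS05-NS. Its levels were 352 and 384 CPM against 248 and 253 CPM, and both inhibitor libraries were below both controls. The log2 fold change was -0.55 ± 0.09 (edgeR adjusted p = 0.00059). This call was close to the threshold: without DMSO replicate 2 the log2 fold change was -0.51 (edgeR adjusted p = 0.0017), and with no scaling beyond library size it was -0.52 (edgeR adjusted p = 0.0011).

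ELOVL6 (ENSG00000170522.5, chromosome 4, 110967002 to 111120355 of hg19, minus strand), which elongates saturated fatty acids to stearate, had 1711 and 2057 fragments in DMSO and 890 and 870 in SGSS05-NS. In CPM these were 68.2 and 88.04 against 40.1 and 36.99, with no overlap. The log2 fold change of -1.02 ± 0.12 was the most negative of the 34 genes (fold 0.493, edgeR adjusted p = 4.9e-05). It lay between -1.20 and -0.84 when 1 library was left out and stayed past the threshold each time.

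FASN, the fatty acid synthase, had 583 and 631 CPM in DMSO and 545 and 514 CPM in SGSS05-NS, the highest CPM of the set. The conditions did not overlap, but the log2 fold change was only -0.20 ± 0.10 (edgeR adjusted p = 0.108). SCD, the desaturase that makes oleate, had 184 and 225 CPM in DMSO against 178 and 182 CPM in SGSS05-NS, at -0.18. ACSS2, which makes acetyl-CoA from acetate, was at -0.03, a value that turned positive without DMSO replicate 1 (0.055) and with no scaling beyond library size (0.0012). Thus ACLY and ELOVL6 were called, and the enzymes FASN and SCD between and after them were not; the differences between these genes were not tested.

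**Figure D2:**
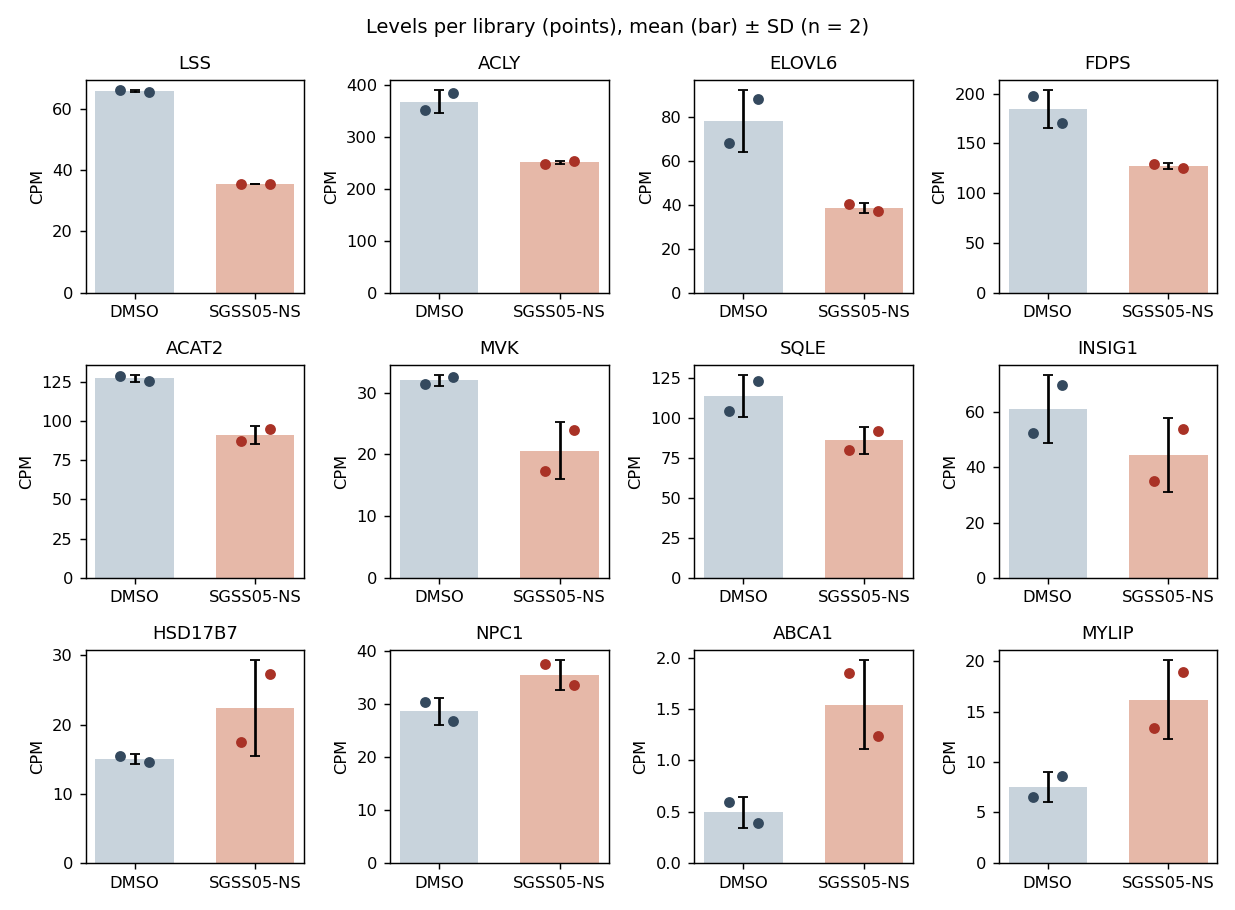
CPM in each library (points) for 12 genes, with the mean as a bar and ± SD (n = 2); the y axis starts at 0 in each panel. In LSS, ACLY and ELOVL6 both SGSS05-NS points lie below both DMSO points, in ABCA1 and MYLIP they lie above, and in INSIG1 they overlap.

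None of the 5 SREBP control genes was called, and each had a negative log2 fold change (median -0.27). SREBF1, which encodes the SREBP that mainly drives fatty acid genes, had 655 and 649 fragments in DMSO and 507 and 511 in SGSS05-NS. The 2 inhibitor libraries were close together and below the controls (-0.27 ± 0.11, edgeR adjusted p = 0.0612). SREBF2, which encodes the SREBP that mainly drives sterol genes, had 85.2 and 102 CPM in DMSO and 92.3 and 91.3 CPM in SGSS05-NS. The inhibitor libraries lay between the controls, and the fold was 0.980 with a 95% interval of 0.838 to 1.15. Its sign turned positive without DMSO replicate 2 (0.088) and with no scaling beyond library size (0.0032). SCAP, the escort, had 120 and 116 CPM against 102 and 92.1 CPM, at -0.28 (edgeR adjusted p = 0.0311).

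INSIG1, which retains SCAP and is itself a strong SREBP target, had 1315 and 1631 fragments in DMSO and 778 and 1267 in SGSS05-NS. The higher SGSS05-NS library, at 53.9 CPM, was above the lower DMSO library, at 52.4 CPM, so the conditions overlapped (-0.46 ± 0.18, edgeR adjusted p = 0.0505). The value ranged from -0.80 to -0.19 with 1 library left out; without DMSO replicate 1 it was -0.66 and without SGSS05-NS replicate 2 it was -0.80, both past the threshold (edgeR adjusted p = 4.3e-05 and 0.00023). INSIG2, the retention protein that is less dependent on SREBP, had 15.0 and 15.3 CPM in DMSO against 14.2 and 11.8 CPM, at -0.22 (edgeR adjusted p = 0.205). The log2 ratio of INSIG1 to INSIG2 within a library was 1.80 and 2.19 in DMSO and 1.30 and 2.19 in SGSS05-NS (exact two-sided permutation test, p = 1). The log2 ratio of SREBF1 to SREBF2 was -1.71 and -1.88 in DMSO and -2.01 and -2.07 in SGSS05-NS, lower in both inhibitor libraries. With 4 libraries the exact permutation test can give no p below 0.33, and 0.33 is what it gave for this ratio.

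The 2 genes listed for uptake and transport, NPC1 and STARD4, both move sterol inside the cell, and neither was called. No lipoprotein receptor is among the 35 members. NPC1, the lysosomal protein that lets cholesterol out to the rest of the cell, had 762 and 627 fragments in DMSO and 831 and 788 in SGSS05-NS. Its levels of 30.4 and 26.8 CPM against 37.4 and 33.5 CPM did not overlap, and the log2 fold change was 0.31 ± 0.11 (edgeR adjusted p = 0.0402). STARD4, a soluble carrier that moves sterol to the endoplasmic reticulum and is an SREBP target, was at 52.3 and 58.5 CPM against 54.4 and 52.3 CPM, which overlap (-0.05; 0.0097 without DMSO replicate 2).

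Among the LXR targets and export genes, MYLIP rose. MYLIP (ENSG00000007944.10, chromosome 6, 16129317 to 16148479 of hg19, plus strand), the ubiquitin ligase, had 163 and 201 fragments in DMSO and 298 and 446 in SGSS05-NS. Its levels were 6.50 and 8.60 CPM against 13.4 and 18.96 CPM, so both inhibitor libraries lay above both controls. The log2 fold change was 1.10 ± 0.19 (fold 2.15, edgeR adjusted p = 0.00061). Without SGSS05-NS replicate 2 it was 0.83 and no longer passed (edgeR adjusted p = 0.0017).

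ABCA1, the pump that loads cholesterol onto apolipoproteins, was near the limit of detection. It had 15 and 9 fragments in DMSO and 41 and 29 in SGSS05-NS, and the inhibitor libraries were above the controls. The ratio of the summed fragments, scaled for depth, was 3.09, with a counting interval of 1.92 to 5.14 that covers counting error only. The log2 fold change was 1.62 ± 0.37 and did not pass (edgeR adjusted p = 0.0037), although it passed with the likelihood ratio test, with no filter on low counts and with counts of both strands. With DESeq2 the adjusted p was 0.023. The gene passed the filter on low counts through the SGSS05-NS libraries alone, so its test and interval are given as values and not as support for a direction of the export genes. With 1 library left out it lay between 1.30 and 1.97 and did not pass. ABCG1, the pump that loads cholesterol onto lipoproteins, had 6.54 and 7.32 CPM in DMSO and 5.77 and 6.85 CPM in SGSS05-NS. The conditions overlapped, at -0.13 ± 0.17 (edgeR adjusted p = 0.558), so whether the LXR targets share a direction cannot be told from these values.

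Set side by side, synthesis had a negative median. The positive median of the 3 LXR and export genes was the value of MYLIP, a ubiquitin ligase and not a pump. ABCA1, above it, rests on few fragments, and ABCG1, below it, had a negative value. Requiring at least 10 counts in every library, which drops ABCA1, gave a median of 0.50. No direction of the export pumps is drawn from this median. The median log2 fold change was -0.15 over the 19 sterol synthesis genes (1 lower, 0 higher), -0.20 over the 5 fatty acid genes (2 lower, 0 higher), 0.13 over the 2 transport genes (0 called) and 1.10 over the 3 LXR targets (1 higher, 0 lower). The sterol synthesis median was -0.054 without SGSS05-NS replicate 1 and -0.27 without SGSS05-NS replicate 2. The difference between these groups was not tested. The summed level of the sterol synthesis genes was 1239 and 1282 CPM in DMSO and 964 and 1107 CPM in SGSS05-NS, lower in both inhibitor libraries. That of the fatty acid genes was 1204 and 1343 CPM in DMSO and 1028 and 1001 CPM in SGSS05-NS, and that of the LXR targets was 13.6 and 16.3 CPM against 21.04 and 27.04 CPM. The export group thus started from a level far below that of synthesis.

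Per length of exon the export genes were again at the bottom of the order. On the scale of CPM per kb of exon (mean of 2 DMSO libraries), ACLY was highest at 70.6, followed by FASN at 65.1, FDPS at 49.6, ACAT2 at 48.3 and SCD at 38.9. LSS was at 9.07 and fell to 4.88, and ELOVL6 was at 10.7 and fell to 5.30. MYLIP went from 2.46 to 5.27, which put it close to the SGSS05-NS level of LSS and ELOVL6. CYP51A1, at 2.37, was the lowest of the sterol synthesis genes in DMSO, and the lowest of all were ABCG1 at 1.13 and ABCA1 at 0.0433. ACLY and FASN, the neighbours at the top of the order, were 352 and 384 CPM against 583 and 631 CPM before scaling by length, so their order turns on the length used.

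**Figure D3:**
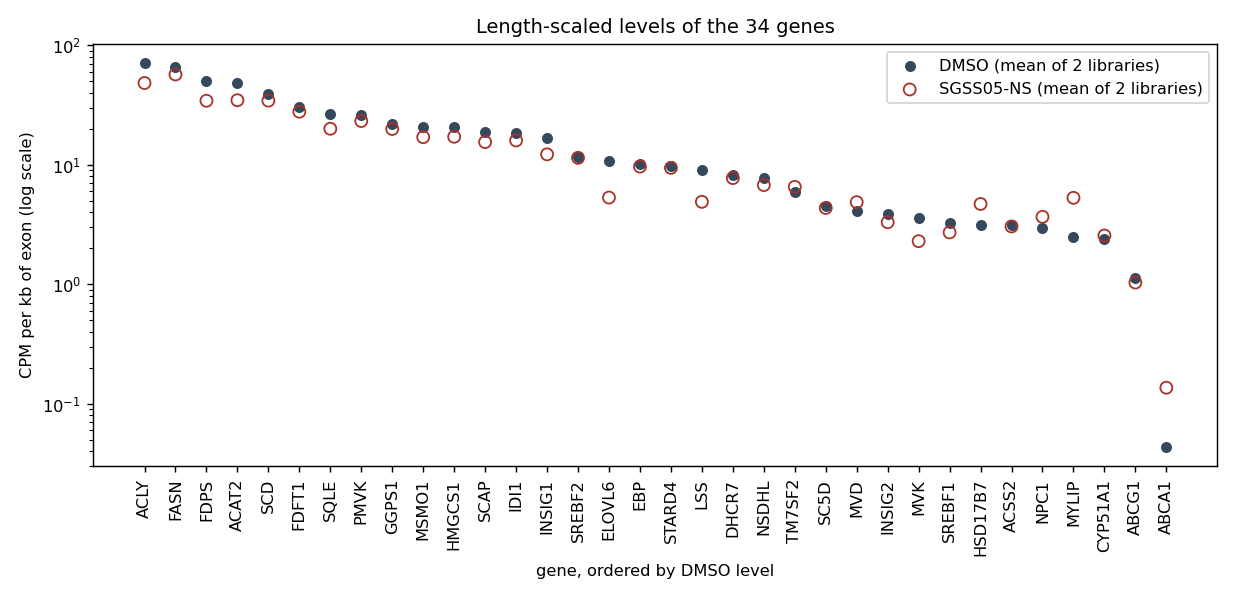
CPM per kb of exon on a log axis for the 34 genes, ordered by the DMSO level (filled: mean of 2 DMSO libraries; open: mean of 2 SGSS05-NS libraries). The open circles of ELOVL6, LSS and MVK lie below their filled points and those of HSD17B7, MYLIP and ABCA1 above them, and ABCA1 is lowest in both conditions.

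Genomic length moved with the change across all genes. The median length was 153 kb over the genes called lower, 17.6 kb over those called higher and 25.7 kb over all 16042 genes with a length, and the Spearman correlation of length and log2 fold change was -0.22 across these genes, which are not independent. Over the 34 members the median length was 23.2 kb and the correlation was -0.02. The median length was 63.6 kb over the 3 members called lower and 22.3 kb over the 30 not called. ELOVL6 is 153 kb long and LSS 40.7 kb, and both were lower. ABCA1, at 147 kb, had a positive value on few fragments. Set against the median of genes of like length, 26 of the 34 members were below it and 8 above, with a median offset of -0.33. The offset was -0.90 for LSS, -0.83 for ELOVL6, -0.56 for ACLY and 0.92 for MYLIP. Its part in the results was not tested.

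**Figure D4:**
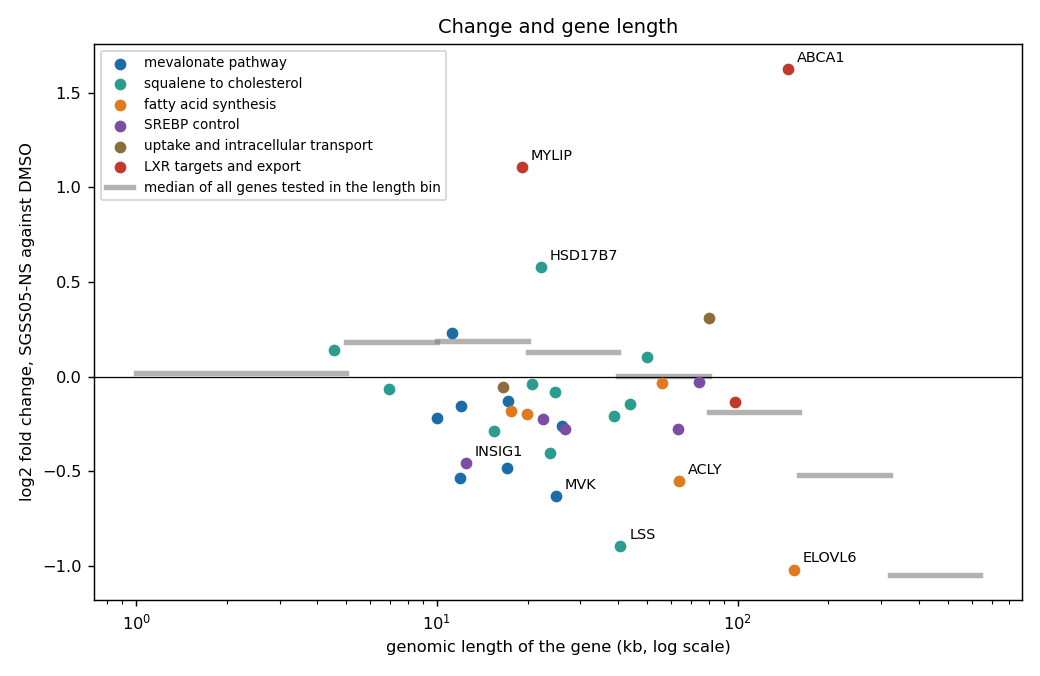
Log2 fold change (SGSS05-NS against DMSO) of each of the 34 genes against its genomic length in kb (log axis); grey bars are the median of all tested genes in each length bin. The grey bars fall from 0.19 for genes of 10 to 20 kb to -1.05 for genes over 320 kb, and LSS, ACLY and ELOVL6 lie below the bar of their bin.

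The 2 SGSS05-NS libraries differed from each other in the sterol genes. Of the 19 sterol synthesis genes, 17 were higher in SGSS05-NS replicate 2 than in replicate 1 (median difference of log2 CPM 0.20), while 9 were higher in DMSO replicate 2 than in DMSO replicate 1 (median -0.01). Over all genes the median difference was 0.01 in SGSS05-NS, and 5 of the 15 other members were higher in SGSS05-NS replicate 2. HSD17B7 differed by 0.64, INSIG1 by 0.62, IDI1 by 0.48, MVK by 0.46 and MSMO1 by 0.39 log2 units. LSS differed by 0.0038 and FDPS by -0.04. INSIG1 and HMGCS1 also differed between the DMSO libraries, by 0.41 and 0.47. The spread between inhibitor libraries was thus wide in several sterol genes that were not called.

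**Figure D5:**
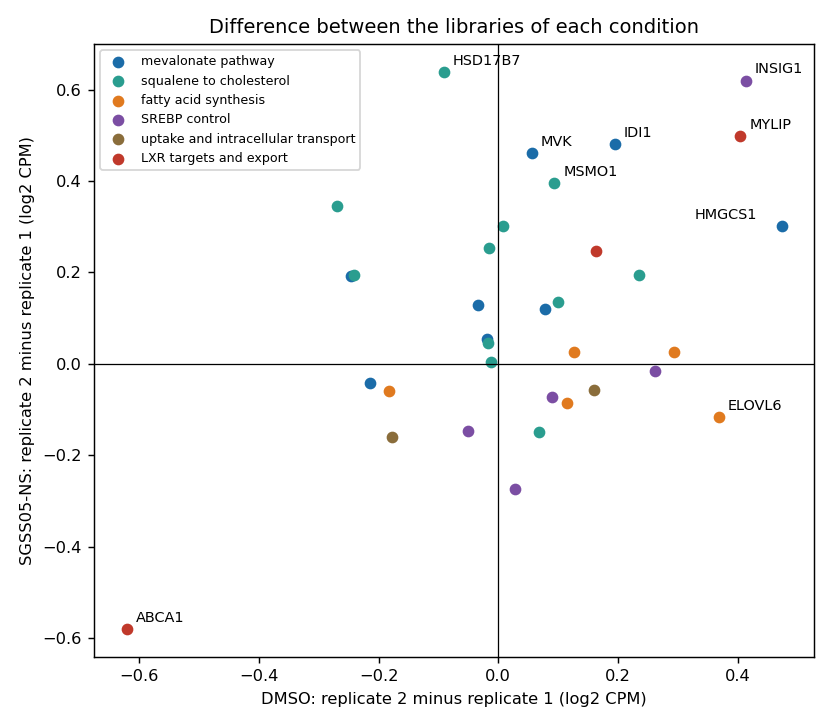
Difference of log2 CPM between replicate 2 and replicate 1 in DMSO (x axis) and in SGSS05-NS (y axis) for the 34 genes. Most sterol synthesis genes (blue and green) lie above 0 on the y axis, and INSIG1, HMGCS1 and MYLIP lie to the upper right.

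The wider pathway was read in further lists, which were chosen with earlier results of these data known. Beside their counts stand 6.37% higher and 8.14% lower over all genes tested at an adjusted p under 0.001. Of 14 further uptake and transport genes, 1 was higher and 0 lower: OSBP, which exchanges cholesterol at contacts between endoplasmic reticulum and Golgi, with 1450 and 1563 fragments against 2068 and 2115 (0.55, edgeR adjusted p = 0.00089). For OSBP, both inhibitor libraries lay above both controls. Of the receptors in this list, VLDLR and LRP1 had positive values (0.53 each) and LRP8 (-0.29) and SCARB1 (-0.28) negative ones, none called.

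Of 10 tested genes for LXR signalling, export and sterol conversion, 1 was higher and 0 lower. This was CYP27A1, a mitochondrial sterol hydroxylase that makes an oxysterol, at 2 and 4 fragments in DMSO and 18 and 24 in SGSS05-NS. It passed the filter on low counts through the SGSS05-NS libraries alone, so its call is a description of few fragments. The depth-scaled ratio was 7.42, with a counting interval of 3.14 to 21.4 (edgeR adjusted p = 0.00064). Of 26 further fatty acid genes tested, ELOVL4, the elongase of very long chains, rose, from 280 and 232 fragments to 499 and 497 (1.05, edgeR adjusted p = 5.8e-05), and HSD17B12, a reductase of the elongation cycle, fell, from 1316 and 1251 to 845 and 790 (-0.57, edgeR adjusted p = 0.00088). The medians of these 3 lists lay between 0.01 and 0.04.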

How the data were processed

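RNA of 4 SY5Y libraries (2 DMSO, 2 SGSS05-NS) was sequenced. Per the labels and the methods of the study, the authors used Trimmomatic 0.30 for trimming and STAR 2.4.2a for alignment to hg19, and the deposited files hold raw counts per gene with no normalization. The methods name GENCODE annotation and a stranded kit with ribosomal RNA removal, whereas the labels name a TruSeq RNA kit. The reverse-strand column was used, since the forward strand held 4.64% to 5.05% of gene fragments. Of 57820 identifiers, 55538 matched GENCODE 44 on GRCh37, which gave symbols, positions and exon lengths.

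Counts were scaled with TMM and tested in edgeR 4.0.16 (R 4.3.3; filterByExpr, glmQLFit and glmQLFTest, Benjamini-Hochberg over 16468 genes, adjusted p under 0.001). Standard errors and 95% intervals come from this fit. Its calls were tested on simulated data, but its standard errors and intervals were not. DESeq2 1.42.0 and other settings were alternatives. The 2 libraries of a condition differed by more than counting error (chi-square over its degrees of freedom, 8.76 in DMSO and 11.8 in SGSS05-NS). Each counts as a sample because the methods of the study call them independent biological replicates. The rule for the members uses no measured value, but the members, gene lists and tests were chosen with earlier results of these data known. All 35 members are accounted for; full values were given for members past the threshold and for those with the largest changes of each role, and of the wider lists the called genes were named. The result of a further list is not reported here. Intervals cover counting error only where said.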

Additional observations from a re-analysis of the deposited data

How the results depend on the processing

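LSS and ELOVL6 were called under every alternative run. ACLY was lost with library size as the only scaling and without DMSO replicate 2, and MYLIP without SGSS05-NS replicate 2. At an adjusted p under 0.001, 2022 genes were higher and 2267 lower by the likelihood ratio test, with 2 members higher and 6 lower, adding ACAT2, MVK, FDPS and ABCA1. With DESeq2, 1142 genes were higher and 1598 lower, 1 member higher and 5 lower, with no adjusted p for 1278 genes. With no filter on low counts, 2034 genes were higher and 2570 lower, 3 members higher and 8 lower. Requiring at least 10 counts in every library, which drops ABCA1, moved the LXR and export median to 0.50. Counts of both strands gave 954 genes higher and 1414 lower of 17778 tested, with 2 members higher and 4 lower. At an adjusted p under 0.05, 3728 genes were higher and 3903 lower, 4 members higher and 8 lower. With the replicate number as a block (replicate block), 1759 genes were higher and 2007 lower. Then 2 members were higher and 7 lower, adding ACAT2, MVK, FDPS, INSIG1 and ABCA1. Over all genes, the deviations of same-numbered libraries had a correlation of 0.0605 (2 pairs). Whether the numbers mark a pairing cannot be told from 2 pairs, and the main fit does not use them. With 1 library left out, members higher ranged from 0 to 2 and members lower from 4 to 6; each such fit leaves 1 condition with a lone library that is assumed to vary like the others. The medians then ranged from -0.20 to -0.083 (all members), -0.33 to -0.16 (fatty acid synthesis), 0.83 to 1.30 (LXR targets and export), -0.45 to -0.13 (mevalonate pathway), -0.24 to -0.025 (squalene to cholesterol) and -0.27 to -0.054 (both sterol groups). Signs turned in genes that were not called: with library size only, ACSS2 (0.0012) and SREBF2 (0.0032); without DMSO replicate 1, ACSS2 (0.055); without DMSO replicate 2, CYP51A1 (-0.030), SREBF2 (0.088) and STARD4 (0.0097); without SGSS05-NS replicate 1, DHCR7 (0.057). With 1 library left out these ranged from -0.14 to 0.055 (ACSS2), -0.030 to 0.22 (CYP51A1), -0.16 to 0.088 (SREBF2), -0.14 to 0.0097 (STARD4) and -0.24 to 0.057 (DHCR7). The cause of these moves was not tested, apart from the dropped gene and the fewer samples. Depth limits ABCA1 and CYP27A1, which rest on few fragments.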

Other observations

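Fragments on the opposite strand passed the threshold in 1 member, STARD4. They numbered 35 and 31 in DMSO and 13 and 4 in SGSS05-NS, lower in both inhibitor libraries (edgeR adjusted p = 0.00063 over 7200 genes tested on that strand, of which 679 were called). In ABCA1, with the next smallest adjusted p, they numbered 1 and 3 in DMSO and 10 and 19 in SGSS05-NS, which did not pass (edgeR adjusted p = 0.0023). The processed pseudogenes CYP51A1P1, CYP51A1P2 and SCDP1 had fewer fragments in both inhibitor libraries: 27 and 26 against 11 and 11, 28 and 24 against 12 and 10, and 20 and 17 against 4 and 5. Their parent genes CYP51A1 and SCD did not pass the test, and whether reads of genes and copies were told apart was not tested.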
